A study of Mus musculus with 2 samples.

Results

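DNA damage sensing and break repair genes were examined in hair follicle stem cells, the bulge epithelium from which each new hair grows. The 37 genes are a list fixed by name, and each symbol was found on 1 of the 42392 gene IDs of the expression table. The series holds 2 samples of these cells from the skin of female mice, labelled anagen II-III, an early growth stage of the follicle, and telogen, its resting stage. Both carry K15-CrePGR, a Cre fused to the progesterone receptor and driven by a keratin 15 promoter, and Shh+/-, which leaves 1 intact copy of the hedgehog ligand gene. RU486, which switches this Cre on, was given for 8 days in both, and their titles call them controls. The anagen library was the 1 that a column of the table could be matched to, and the telogen sample was not analysed here. Values are TPM, which divides by transcript length and by the library total, so levels of different genes can be set side by side. With 1 library there is no replicate error and no test, TPM keeps no read depth, and the number of animals in the library is not labelled.

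A broken chromosome is mended by end joining, in which the Ku heterodimer caps the ends and a ligase complex seals them, or by homologous recombination, in which the ends are trimmed and a recombinase copies the sister chromatid. End joining works throughout the cell cycle, whereas recombination needs a sister and is largely used after replication has begun. Kinases that sense breaks or stalled forks signal to both and to the cell cycle. In the mouse hair follicle, bulge stem cells have been described as relying on end joining after irradiation.

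Cells had been sorted as high for integrin alpha 6 and positive for CD34, and the library carried the transcripts of the bulge. All 7 hair follicle stem cell markers lay between 16.1 TPM for Nfatc1 and 3364 TPM for Krt15. The genes of the surface proteins used to exclude other cells stood at 0.264 TPM for Ptprc of leukocytes, 2.01 TPM for Pecam1 of endothelium, 1.44 TPM for Pdgfra of fibroblasts and 1.17 TPM for Kit of melanocytes. Other markers of the same cells were higher, apart from Cdh5 of endothelium. Among leukocyte genes, Cd74 and Lyz2 stood at 13.2 and 10.02 TPM and Cd3e at 0.343 TPM, the endothelial genes Plvap and Cdh5 at 4.65 and 1.66 TPM, and the melanocyte genes Mlana and Dct at 12.6 and 11.7 TPM. The fibroblast genes Col3a1 and Col1a1, at 287 and 278 TPM, exceeded every stem cell marker but Krt15, and Dcn stood at 63.9 TPM. The suprabasal genes Krt10, Krt1 and Lor stood at 138, 33.0 and 6.77 TPM. None of these markers was at 0. The part of such cells in the levels given here was not tested. A level in bulk RNA is also an average, so fewer cells with a transcript and less transcript per cell cannot be told apart.

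All 37 break repair genes reached 1 TPM, a level reached by 56.1% of the 20792 protein-coding genes in the table. Most were nevertheless modest. Their median was 8.07 TPM, against 12.5 TPM for the 11656 protein-coding genes at 1 TPM or more, and 11 of 37, or 29.7%, were at or above that median, against 28.0% of all 20792 protein-coding genes. At 5 TPM or more there were 23 of 37, or 62.2%, against 42.5% of all protein-coding genes and 75.8% of those at 1 TPM or more. The list was thus detected more completely than the average gene, and its middle lay below that of the detected genes. The list spanned 23.3-fold, from Brca2 at 1.36 TPM to Xrcc1 at 31.7 TPM. Xrcc1, a scaffold of single-strand break repair (ENSMUSG00000051768, GRCm38 chromosome 7, 24546699 to 24573438), exceeded 76.2% of the protein-coding genes at 1 TPM or more. Brca2, which loads the recombinase onto trimmed ends (ENSMUSG00000041147, chromosome 5, 150522297 to 150570147), exceeded 3.51% of them.

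**Figure D1:**
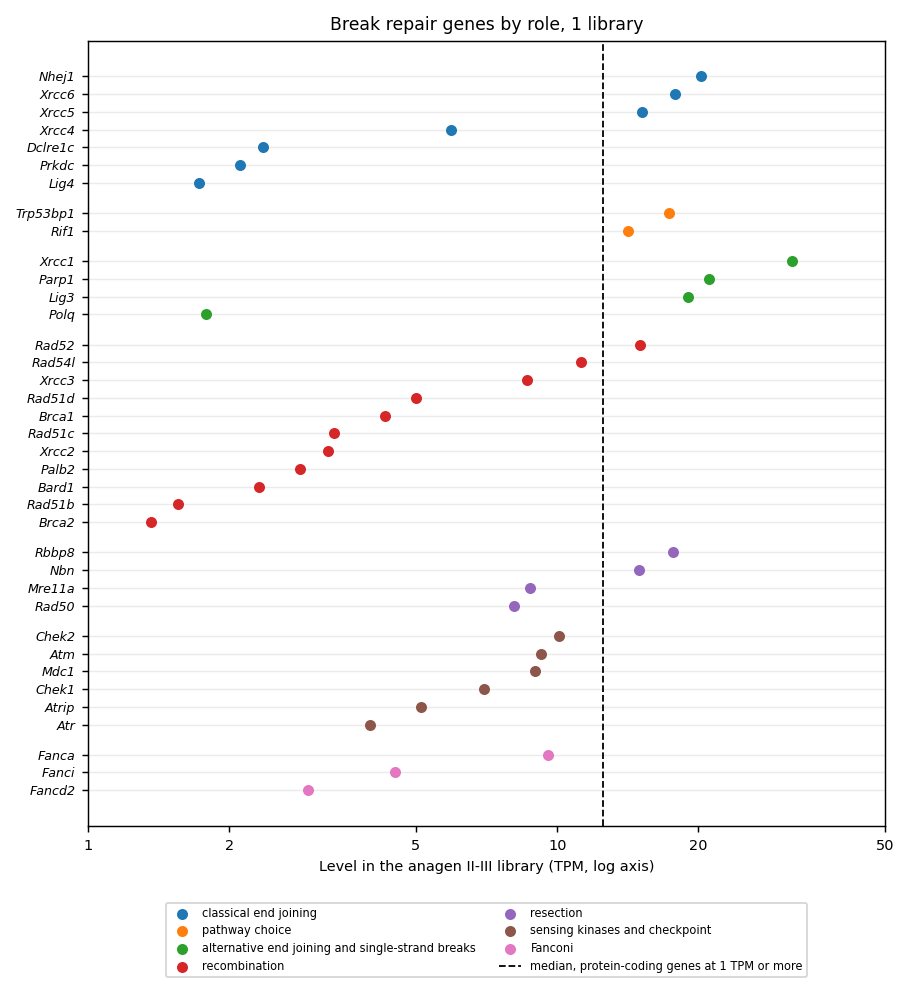
Level of each of the 37 break repair genes (vertical axis, grouped by role) in the anagen II-III library (horizontal axis, TPM on a log scale), 1 point per gene with no error because there is 1 library. The dashed line is the median of protein-coding genes at 1 TPM or more, 12.5 TPM, and 11 points lie to its right.

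Classical end joining genes split into a high and a low set with little between them. The 7 genes had a median of 5.93 TPM. Nhej1, which encodes the ligation cofactor XLF, was highest at 20.2 TPM, followed by the Ku subunit genes Xrcc6 at 17.8 TPM and Xrcc5 at 15.2 TPM. These are the 3 end joining genes above the protein-coding median, or 42.9% of the 7, against 28.0% of all protein-coding genes. The Ku partners act as a heterodimer, and their levels differed 1.17-fold. Xrcc4, the scaffold that holds the ligase, stood in the middle at 5.93 TPM. The 3 lowest were Dclre1c, which encodes the nuclease Artemis, at 2.36 TPM, Prkdc, the large kinase that Ku recruits to an end, at 2.11 TPM, and Lig4, the ligase itself, at 1.72 TPM. Xrcc6 was thus 8.44-fold above Prkdc, and Nhej1 was 11.8-fold above Lig4. Prkdc spans 204.796 kb on chromosome 16 and Lig4 only 7.661 kb on chromosome 8, so the low set holds both a very long and a short gene.

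Trp53bp1 and Rif1, which protect ends from trimming and so favour end joining, were both above the protein-coding median. Trp53bp1, a chromatin reader that gathers at breaks, stood at 17.3 TPM and its effector Rif1 at 14.1 TPM. Trp53bp1 was 4.04-fold above Brca1, which opposes it in the choice of pathway.

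The genes of the back-up route and of single-strand break repair included the highest levels of the whole list and 1 of the lowest. Besides Xrcc1 at 31.7 TPM, Parp1, the sensor that marks broken strands with ADP-ribose, stood at 21.0 TPM and Lig3, the ligase that Xrcc1 binds, at 19.0 TPM. Xrcc1 was 1.67-fold above Lig3. Polq, the polymerase that joins ends through short matching stretches, was at 1.79 TPM, and Parp1 was 11.8-fold above it. Of the 4 genes, 3 were above the protein-coding median, a level reached by 28.0% of all protein-coding genes.

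Recombination genes were mostly low against the protein-coding genes at 1 TPM or more. The 11 genes had a median of 3.34 TPM, 7 were under 5 TPM, and 1, Rad52, was above the protein-coding median. The share at 5 TPM or more was 36.4%, against 42.5% of all protein-coding genes and 75.8% of those at 1 TPM or more. At or above the protein-coding median were 9.09%, against 28.0% of all protein-coding genes. The complex of Brca1 and its partners was low throughout, with Brca1, a ubiquitin ligase that promotes recombination, at 4.29 TPM, its ring partner Bard1 at 2.31 TPM, Palb2, the bridge to Brca2, at 2.82 TPM, and Brca2 at 1.36 TPM. Brca1 was 1.86-fold above Bard1 and 3.16-fold above Brca2. The 5 paralogs of the recombinase, which help to build and hold its filament, ranged 5.56-fold. Rad51b was lowest at 1.55 TPM, Xrcc2 stood at 3.24 TPM, Rad51c at 3.34 TPM and Rad51d at 5.003 TPM, and Xrcc3 was highest at 8.63 TPM. Rad51c sits in both paralog complexes, and its partner Xrcc3 was 2.58-fold above it. Rad54l, a motor protein that helps the filament find its match, stood at 11.2 TPM. Rad52, which anneals complementary single strands, was highest at 14.98 TPM and 11.02-fold above Brca2.

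The median of the classical end joining genes was 1.77-fold that of the recombination genes, at 5.93 TPM and 3.34 TPM, a difference of 0.83 on the log2 scale. The spread within each set was wider than this difference, with SDs over genes of 1.56 log2 units for end joining and 1.12 for recombination. Of the 77 pairs of an end joining and a recombination gene, the end joining gene was higher in 48, or 62.3%. The 3 end joining genes above all recombination genes were Nhej1, Xrcc6 and Xrcc5, and the other 4 lay within the recombination range. In each set 4 genes reached 5 TPM, out of 7 end joining and 11 recombination genes. These are 57.1% and 36.4%, against 42.5% of all protein-coding genes and 75.8% of those at 1 TPM or more. By the geometric mean the sets stood at 5.99 TPM for end joining and 4.04 TPM for recombination, a ratio of 1.48. The size of the difference depended on which genes were counted. It was 2.08 log2 units with Trp53bp1 and Rif1 added to end joining and 2.18 with Xrcc1, Lig3, Parp1 and Polq added instead, but 0.24 with the trimming genes added to recombination. Genes are not replicates, and without a second library the difference has no error over animals.

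**Figure D2:**
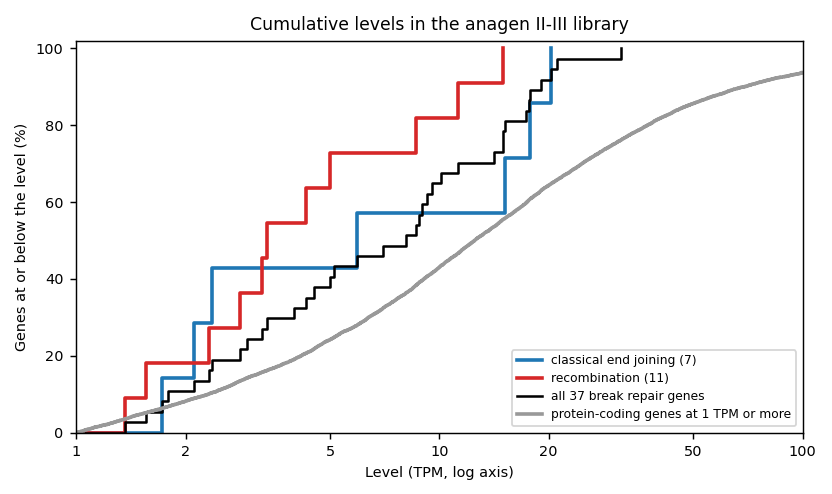
Share of genes (vertical axis, percent) at or below each level (horizontal axis, TPM on a log scale) in the anagen II-III library, for 7 classical end joining genes, 11 recombination genes, all 37 break repair genes and protein-coding genes at 1 TPM or more. The recombination curve ends at 14.98 TPM and the end joining curve at 20.2 TPM, while the protein-coding curve runs on to the right with a median of 12.5 TPM.

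The genes that trim broken ends were higher than most of the recombination genes they prepare the way for. Rbbp8, which encodes the nuclease cofactor CtIP, stood at 17.6 TPM and was 4.10-fold above Brca1, its binding partner. The 3 genes of the break sensor that holds and trims ends were Nbn at 14.9 TPM, the nuclease gene Mre11a at 8.77 TPM and the tether gene Rad50 at 8.07 TPM. Mre11a and Rad50 differed 1.09-fold, and Nbn was 1.85-fold above Rad50.

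None of the 6 sensing and checkpoint genes reached the protein-coding median, and all lay within a 2.54-fold range. Of all protein-coding genes, 28.0% were at or above that median. Atm, the kinase activated by breaks, stood at 9.25 TPM, 2.32-fold above Atr, the kinase activated by exposed single strands, at 3.98 TPM. Atrip, the partner that Atr needs, was at 5.13 TPM, and the table lists its gene ID under the symbol Gm53191 as well. The effector kinase downstream of Atm, Chek2, stood at 10.1 TPM, 1.45-fold above Chek1, the effector downstream of Atr, at 6.97 TPM. Mdc1, which spreads the Atm signal along chromatin, was at 8.97 TPM.

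The Fanconi genes, which direct the repair of crosslinked strands, were also below that median. Fanca, of the core ubiquitin ligase, stood at 9.55 TPM, and the paired substrates of that ligase, Fanci and Fancd2, at 4.51 and 2.95 TPM. Fanci was 1.53-fold above Fancd2.

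Other genes of these pathways, taken from a list by function, had a similar median and reached higher levels. All 56 that could be matched reached 1 TPM, against 56.1% of all protein-coding genes. Their median was 8.96 TPM with a range of 1.25 to 71.7 TPM. At or above the protein-coding median were 18, or 32.1%, against 28.0% of all protein-coding genes. Genes of chromatin signalling at breaks led, with a median of 15.6 TPM over 9 genes, of which H2afx, Bre and Fam175a were matched under the symbols H2ax, Babam2 and Abraxas1. Uimc1, which brings a deubiquitinase complex to breaks, stood at 71.7 TPM and H2afx, the histone that the kinases phosphorylate, at 70.2 TPM, while Paxip1 at 7.31 TPM and Fam175a at 6.47 TPM were lowest. Among 8 genes of the checkpoint clamp and its adaptors, Topbp1, an activator of Atr, stood at 49.96 TPM and Rad9a at 13.1 TPM, with Rad17 and Hus1 lowest at 6.27 and 4.70 TPM. The single-strand binding genes Rpa1 and Rpa2 led their 7-gene group at 43.9 and 34.5 TPM, and the helicase genes Blm and Wrn were lowest at 4.05 and 2.74 TPM. Of the 10 cofactors of recombination and resolution, 1 was above the protein-coding median, Mus81, a nuclease subunit, at 31.1 TPM. Rad54b followed at 9.89 TPM, and the nuclease gene Gen1 and Rmi2 were lowest at 2.002 and 1.25 TPM. Among 10 further Fanconi genes, Fance and the deubiquitinase gene Usp1 stood at 31.7 and 27.2 TPM, and Fancf and Fancb at 1.83 and 1.63 TPM. The 12 genes of end processing and end protection had a median of 10.6 TPM, with Parp2, a relative of Parp1, at 20.4 TPM, Paxx, an end joining cofactor that binds Ku, at 19.9 TPM, Parp3 at 2.75 TPM and Shld2 at 1.87 TPM at the extremes.

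Many of the break repair genes start back to back with another gene. Start sites came from the RefSeq promoter table of GRCm38.p6, which held 29 of the 37 genes. Nbn, Rad50, Rbbp8, Rif1, Prkdc, Xrcc2, Rad51d and Fancd2 were not used here. Of these 29, 12, or 41.4%, had the start of another protein-coding gene on the opposite strand within 1 kb upstream, against 13.6% of 9394 protein-coding genes at 1 TPM or more. The stretches between the starts are shown for 5 such pairs because they can be very short, read 5′ to 3′ towards the break repair gene, with the CCAAT box, the word bound by the factor NF-Y, in capitals on either strand.
Lig4 and Abhd13, chr8:9977681-9977716, minus strand: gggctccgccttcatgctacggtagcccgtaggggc
Xrcc4 and Tmem167, chr13:90089609-90089666, minus strand: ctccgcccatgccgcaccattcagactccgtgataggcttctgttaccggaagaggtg
Rad51c and Tex14, chr11:87404955-87405012, minus strand, up to the annotated span of Tex14: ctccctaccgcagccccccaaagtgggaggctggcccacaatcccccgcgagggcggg
Mre11a and Ankrd49, chr9:14784574-14784653, plus strand: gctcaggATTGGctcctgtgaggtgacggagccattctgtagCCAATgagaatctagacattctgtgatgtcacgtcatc
Brca1 and Nbr1, chr11:101551956-101552106, minus strand: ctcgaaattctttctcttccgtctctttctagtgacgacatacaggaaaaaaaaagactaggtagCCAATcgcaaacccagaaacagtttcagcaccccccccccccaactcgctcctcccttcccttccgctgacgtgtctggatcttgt

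The levels on the 2 sides of such a start were often far apart, and neither side was regularly the higher. The break repair gene was higher in 6 of 12 pairs. Lig4 stood at 1.72 TPM and Abhd13, 37 bases away, at 9.83 TPM. Brca1 stood at 4.29 TPM and Nbr1, which encodes an autophagy receptor, at 34.0 TPM across 152 bases. The widest gap in that direction was at Palb2 with 2.82 TPM and Dctn5, a dynactin subunit gene, with 40.9 TPM across 95 bases. In the other direction Rad51c stood at 3.34 TPM and Tex14, a gene of germ cell bridges, at 0.140 TPM, and Atr stood at 3.98 TPM and 1700065D16Rik at 0.00647 TPM. Xrcc1 was 5.13-fold above Pinlyp, and Atm at 9.25 TPM was 1.96-fold above Npat, a coactivator of histone genes, at 4.72 TPM. Near-equal pairs were Mre11a at 8.77 TPM with Ankrd49 at 6.49 TPM, Xrcc6 at 17.8 TPM with Desi1 at 13.9 TPM, and Rad51b at 1.55 TPM with Zfyve26 at 1.71 TPM. The annotated span of Xrcc6 begins upstream of the start used here, and Desi1 overlaps 45.4% of it, so reads of these 2 genes may be shared. Xrcc4 at 5.93 TPM and Xrcc3 at 8.63 TPM were below their neighbours Tmem167 at 9.29 TPM and Zfyve21 at 19.5 TPM. Outside these 12 pairs, Lig3 at 19.0 TPM starts 67 bases from the noncoding gene Gm11423 at 1.62 TPM, and Rad54l starts 150 bases from the noncoding gene 2510003B16Rik, for which no value was matched.

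**Figure D3:**
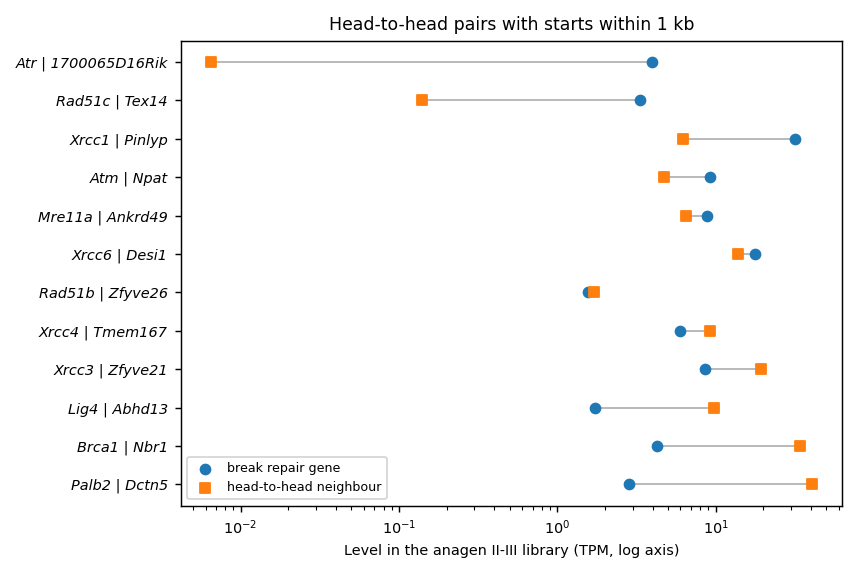
Levels (horizontal axis, TPM on a log scale) of 12 break repair genes (circles) and of the protein-coding neighbour that starts within 1 kb on the opposite strand (squares), in the anagen II-III library, ordered by their ratio. The break repair gene is to the right in the upper 6 pairs and to the left in the lower 6.

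The promoters, here 250 bases before to 50 bases after a start, were searched on both strands for words linked to the cell cycle. The core of E2F sites was taken as TTCCCGC or TTGGCGC and the variants TTCGCGC and also TTGCCGC, the CHR element as TTTGAA and the CCAAT box as CCAAT, and none of these words contains another, although TTGGCGC and the reverse of the CCAAT box can overlap. An E2F core was present for 14 of 29 genes, or 48.3%, against 19.98% of the protein-coding genes at 1 TPM or more and 13.7% of all protein-coding genes with a promoter in the table. It was found for 3 of 6 end joining genes, Xrcc6, Lig4 and Xrcc4, and for 5 of 9 recombination genes, Brca1, Brca2, Bard1, Rad51c and Rad52, so about as often in both sets. Among genes of other roles it was found for Atm, Chek1, Chek2, Mdc1, Polq and Fanci. The 56 other genes of these pathways had it in 19 of the 45 with a promoter in the table, or 42.2%. The CCAAT box was about as frequent in the break repair genes, at 51.7%, as in the protein-coding genes at 1 TPM or more, at 43.5%, and the CHR element was found for Polq, Bard1 and Rad51b, or 10.3%, against 14.3%.

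The promoters of Mdc1, Bard1 and Xrcc3 show these words in different company, with every E2F core, CCAAT box and CHR element in capitals. They cover the bases upstream of the annotated gene in the promoter window. The stretch of Bard1 ends 170 bases before the start site that defined its window, against 4 bases for Mdc1 and 15 for Xrcc3.
Mdc1, chr17:35841248-35841494, plus strand, with an E2F core on each strand and a CCAAT box between them: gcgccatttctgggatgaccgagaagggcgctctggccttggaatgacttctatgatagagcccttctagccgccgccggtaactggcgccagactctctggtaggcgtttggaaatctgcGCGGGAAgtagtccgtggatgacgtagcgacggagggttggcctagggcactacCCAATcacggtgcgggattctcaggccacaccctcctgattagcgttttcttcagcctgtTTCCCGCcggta
Bard1, chr1:71103142-71103222, minus strand, with a CHR element and an E2F core: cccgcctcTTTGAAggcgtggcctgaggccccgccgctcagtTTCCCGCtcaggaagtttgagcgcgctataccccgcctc
Xrcc3, chr12:111813894-111814129, minus strand, with CCAAT boxes alone: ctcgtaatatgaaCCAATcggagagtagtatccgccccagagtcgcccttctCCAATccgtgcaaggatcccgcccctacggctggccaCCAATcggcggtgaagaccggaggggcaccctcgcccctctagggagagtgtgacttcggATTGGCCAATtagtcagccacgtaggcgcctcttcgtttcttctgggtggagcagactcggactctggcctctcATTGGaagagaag

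Levels of genes with and without each word overlapped. The 14 genes with an E2F core had a median of 5.22 TPM and ranged to 17.8 TPM, and the 15 genes without it had a median of 9.55 TPM and ranged to 31.7 TPM. With the CCAAT box the order of the medians was the opposite, at 8.97 TPM for 15 genes with it and 5.22 TPM for 14 without. The 3 genes with a CHR element had a median of 1.79 TPM and the 26 without it one of 8.87 TPM. Mdc1 and Bard1, which both carry an E2F core, stood at 8.97 and 2.31 TPM. A match is a word in the sequence and does not show that a factor was bound, and a window without it says nothing about the factor.

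**Figure D4:**
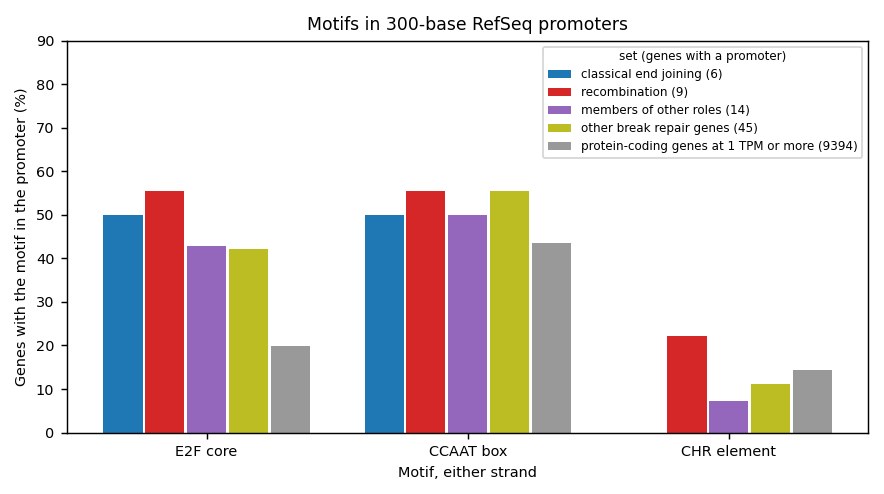
Share of genes (vertical axis, percent) with an E2F core, a CCAAT box or a CHR element on either strand of a 300-base RefSeq promoter, for 6 end joining, 9 recombination and 14 other break repair genes, 45 further genes of these pathways and 9394 protein-coding genes at 1 TPM or more. The E2F core bars of the repair sets stand between 42.2% and 55.6%, above 19.98% for the protein-coding genes.

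Gene length did not order the levels. Across the 37 genes the log2 level and the log2 genomic span had a Pearson correlation of -0.11 and a Spearman rho of -0.04, against -0.20 and -0.18 across 11656 protein-coding genes at 1 TPM or more, and genes are not independent replicates. Break repair genes were long, with a median span of 52.3 kb against 23.0 kb for those protein-coding genes, and the end joining genes had a median of 87.5 kb against 28.3 kb for recombination genes. In 10 of the 37 the span overlaps another protein-coding gene. The share over all protein-coding genes was not computed, so this count is not read as a trait of the list. Since the sources used here do not say whether the counting used strand, reads of the partners may be shared. Among protein-coding partners the largest overlaps were 45.4% of the span of Xrcc6 with Desi1, 43.5% of Xrcc3 with Klc1, at 39.2 TPM, and 36.7% of Dclre1c with Suv39h2, at 2.90 TPM. Fanci, at 4.51 TPM, overlaps Polg, at 40.6 TPM, over 6.96% of its span. RefSeq also places the noncoding gene Atrip-trex1 over 99.8% of the span of Atrip, and no value was matched to it, so the level of Atrip is uncertain.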

How the data were processed

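Per the labels' protocols, mRNA libraries of sorted mouse bulge cells were read as paired ends on an Illumina HiSeq. The authors deposited TPM values per gene, per the file headers. The tools named in the submitters' processing notes are RSEM 1.2.30 and Bowtie2 2.2.9, with build mm10, and the annotation is not given in the sources used here. Of 12 columns with values of a sample, the anagen sample was read from the one whose name starts with 1, a number found in that sample's title alone, and 11 were left out. TPM keeps no depth, so no interval or detection floor was set. Each gene ID was used once, and a symbol on several IDs took its highest value. Gene types and spans came from RefSeq GRCm38.p6 by symbol, and sequences from its promoter table, credited to RefSeq. GRCm38 is another name of mm10.

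The members and lists were chosen with earlier results of these data known. All 37 members are named. Of the other pathway genes the text names the 2 highest and 2 lowest of each role. Shld3 was not matched, and another of these genes is not reported here. Polg, Klc1 and Suv39h2 were named after their values were seen. The function that computes the differences was checked on levels of randomly drawn genes of this library, part of them multiplied by known factors. It returns such factors by construction, so the check bears only on the code. Alternatives were another pseudocount, level filters, a rescaling, the mean and other gene sets. Python 3.11.15, pandas 2.3.3, numpy 2.4.6, scipy 1.17.1 and matplotlib 3.10.9 were used.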

Additional observations from a re-analysis of the deposited data

How the results depend on the processing

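The difference between end joining and recombination medians, 0.83 on the log2 scale, stayed above 0 under the 6 alternatives that could change it. It was 0.67 with a pseudocount of 1 TPM, 0.57 by the mean of the log2 values, 2.08 with Trp53bp1 and Rif1 in end joining, 2.18 with Lig3, Xrcc1, Polq and Parp1 there instead, 0.24 with Mre11a, Rad50, Nbn and Rbbp8 in recombination and 0.65 with Fanca, Fancd2 and Fanci there. A filter at 1 TPM, which all 37 genes pass, and a rescaling, which multiplies all of them alike, leave it at 0.83 by construction. The number of genes past a level follows from the level chosen, with 37 at 1 TPM, 23 at 5 TPM, 11 at the median of protein-coding genes at 1 TPM or more, 4 at the median of those at 5 TPM or more and 20 at the median of all above 0. The median of the 37 genes was 8.07 TPM as deposited and 14.5 TPM after rescaling without the mitochondrial genome and the 50 highest genes, which multiplies every remaining gene by 1.80. Summing gene IDs per symbol left it at 8.07 TPM. No paired analysis was possible because 1 library was analysed, and no replicate could be left out. The depth is unknown, so the precision of low genes such as Brca2, Rad51b and Lig4 cannot be given.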
